A study of Mus musculus with 6 samples.

Results

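The CC chemokines described here are the monocyte chemoattractant proteins and eotaxin, encoded by Ccl2, Ccl7, Ccl8, Ccl12 and Ccl11, together with Ccl5 and Ccl9. They were taken by gene name from a table of 22162 genes, and each of the 7 names matched 1 row. The samples were mouse skin fibroblasts (MSFs) of the FVB/N strain, cultured from the dorsal skin of FASST mice and kept at 3% oxygen and 5% carbon dioxide. FASST mice carry a tamoxifen-dependent Cre-ER T2 recombinase under the pro-alpha 2(I) collagen promoter and a p27Kip1 allele at the ROSA26 locus that is silent until Cre removes a stop cassette, so cells of both groups carried both alleles. The TAM group (n = 3) received 10 µM tamoxifen and is labelled senescent. The EtOH group (n = 3) received the ethanol vehicle and is labelled non-senescent. A treatment of 48 h is given in the study's methods and not in the sample labels, and the time from treatment to RNA harvest is not stated, so the values cannot be read as a response at 48 h. The drug and the activated allele came together in the TAM group, so their effects cannot be told apart here. The study's methods describe the MSFs as isolated from a single female mouse and do not say whether the replicates were separate isolates, and p-values then measure only the spread between these libraries.

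Poly(A) RNA was sequenced, and the values are normalized counts per gene, which summed to between 14952367 and 17314953 per library. Read totals were not used, so counting errors are unknown. The allele that TAM activates encodes p27Kip1, and its endogenous gene Cdkn1b had 1427, 3074 and 1853 normalized counts in EtOH replicates 1, 2 and 3 and 1699, 1520 and 1630 in the TAM replicates. Whether transgene reads entered this row is not stated, so it does not check the labels. The fibroblast markers Col1a1, Col1a2, Col3a1 and Fn1 lay between 114898 and 628623 normalized counts in every library. Of these, Fn1 overlapped between the groups. Col1a1, Col1a2 and Col3a1, as well as Dcn and Lum, were lower in each TAM library than in any EtOH library. Dcn had 79944, 75763 and 106514 normalized counts in the EtOH replicates and 27277, 6712 and 25738 in the TAM replicates. Among the 6 libraries TAM replicate 2 stood apart in several markers. It had the lowest Dcn (6712 normalized counts, against 25738 to 106514 in the other 5) and Lum (158 against 452 to 3921), and it listed the keratinocyte gene Ivl at 153 where no other library exceeded 1.85. Results for the chemokines are therefore also given without it.

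CC chemokines are small secreted proteins named for 2 adjacent cysteines, and they bind receptors of the CCR family on leukocytes. Monocyte chemoattractant proteins are best known for drawing monocytes into tissue, largely through CCR2, and eotaxin for drawing eosinophils through CCR3. Fibroblasts are a recognized source of these proteins in inflamed skin. Most of their genes sit side by side on mouse chromosome 11, the product of repeated gene duplication.

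All 7 genes lie on chromosome 11 of mm9. Ccl2 (81849073 to 81850955), Ccl7 (81859214 to 81861027), Ccl11 (81871325 to 81876457), Ccl12 (81915347 to 81916902) and Ccl8 (81928687 to 81930301) follow each other on the plus strand within 81.2 kb. Ccl5 (83339280 to 83344020) and Ccl9 (83386421 to 83392138) lie on the minus strand 1409 kb further on. Their exons, merged over annotated transcripts, span between 511 bp for Ccl8 and 3045 bp for Ccl9. No exon base of the 7 genes was shared with another annotated gene. The transcripts of Ccl2, Ccl7, Ccl8, Ccl11, Ccl12 and Ccl5 had no stretch of 100 bases or more at 95% identity with another gene's protein-coding transcript. In Ccl9 such a stretch covered 5.42% of a transcript and matched 10 other genes, so a small part of its signal is uncertain.

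Of the 5 genes of the first group 1, Ccl12, was nearly silent, and the RefSeq promoter table held promoters for Ccl12, Ccl8 and Ccl9. Those of Ccl12 and Ccl8, whose starts lie side by side in the genome and whose levels differed widely, are shown. Each runs from 250 bases before to 50 bases after the transcript start in GRCm38.p6, on the plus strand, at chr11:82101595-82101894 for Ccl12 and chr11:82114935-82115234 for Ccl8. Capitals mark matches to any of the motifs searched.
Ccl12: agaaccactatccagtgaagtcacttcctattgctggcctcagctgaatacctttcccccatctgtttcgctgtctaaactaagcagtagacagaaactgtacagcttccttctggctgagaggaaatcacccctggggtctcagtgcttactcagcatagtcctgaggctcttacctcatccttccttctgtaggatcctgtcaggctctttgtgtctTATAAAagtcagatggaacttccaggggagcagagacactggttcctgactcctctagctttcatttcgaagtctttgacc
Ccl8: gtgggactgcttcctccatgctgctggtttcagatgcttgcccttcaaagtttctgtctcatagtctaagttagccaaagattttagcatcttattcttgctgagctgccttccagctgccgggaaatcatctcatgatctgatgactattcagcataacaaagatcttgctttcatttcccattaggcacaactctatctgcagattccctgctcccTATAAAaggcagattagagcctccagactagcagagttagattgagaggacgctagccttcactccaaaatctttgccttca

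The 2 promoters were identical at 180 of 277 aligned bases (65.0%). Each held 1 TATA motif (TATAAA) on the plus strand, which began 31 bases before the start in Ccl12 and 32 bases before it in Ccl8. A match to this motif on either strand was found in 13.6% of the 32851 mouse promoters of the table. Neither promoter held a match on either strand to AP-1 (TGANTCA), GAS (TTCNNNGAA) or the NF-kB consensus, which were found in 7.81%, 8.30% and 8.46% of all promoters. The Ccl9 promoter held 1 AP-1 match, 1 NF-kB match and 3 TATA matches, 2 of which overlapped. The windows are short, and the absence of these letters says nothing about binding of the factors elsewhere.

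Ccl2, Ccl7, Ccl8, Ccl11 and Ccl5 had higher values in each TAM library than in any EtOH library, by 21.7-, 5.23-, 14.4-, 6.23- and 3.74-fold in group means. Ccl9 overlapped between the groups, and Ccl12 stayed below 6 normalized counts in every library. Of the 7 genes 6 passed the filter of 1 c.p.m. (16.2 normalized counts) in at least 3 libraries, and Ccl12 did not. Of these 6, 1 (Ccl8) had an adjusted p under 0.05 with limma on log2(normalized counts + 1), where 0.168% of the 11877 genes tested were called higher. With the replicate number as a block 4 (Ccl2, Ccl7, Ccl8 and Ccl11) were called higher, where 1.0% of all genes tested were. The labels do not state a pairing, and the block was taken from these same data. Block results and paired ratios rest on that choice. Ccl5 reached the filter in each TAM library but in EtOH only in replicate 3, so it was tested because of its TAM values. Its place in the counts without overlap and by pair partly follows from that. The TAM values lay above the EtOH values without overlap for 5 of the 6, against 9.19% of all genes tested. That background depends on the scaling, since 1091 genes lay above and 1359 below without overlap as deposited, and 1650 above and 754 below with each library scaled to the same sum, which also separated the groups of Ccl9, as median-ratio scaling did. Scaling to the same sum moved the median log2 difference of all genes by 0.11. The 6 genes had a median log2 fold change of 2.63, and all genes tested one of −0.03. More cells expressing a gene and more RNA per cell cannot be told apart in these bulk samples. The study had itself singled out Ccl2, Ccl5, Ccl7 and Ccl8 from these libraries, so their direction is not independent evidence. It reported chemokines including Ccl2 and Ccl5 as raised at an FDR under 0.05 with edgeR, a different test from limma. It also reported qRT-PCR of cytokines found raised, with assays listed for these 4 genes, which was not examined here.

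**Figure D1:**
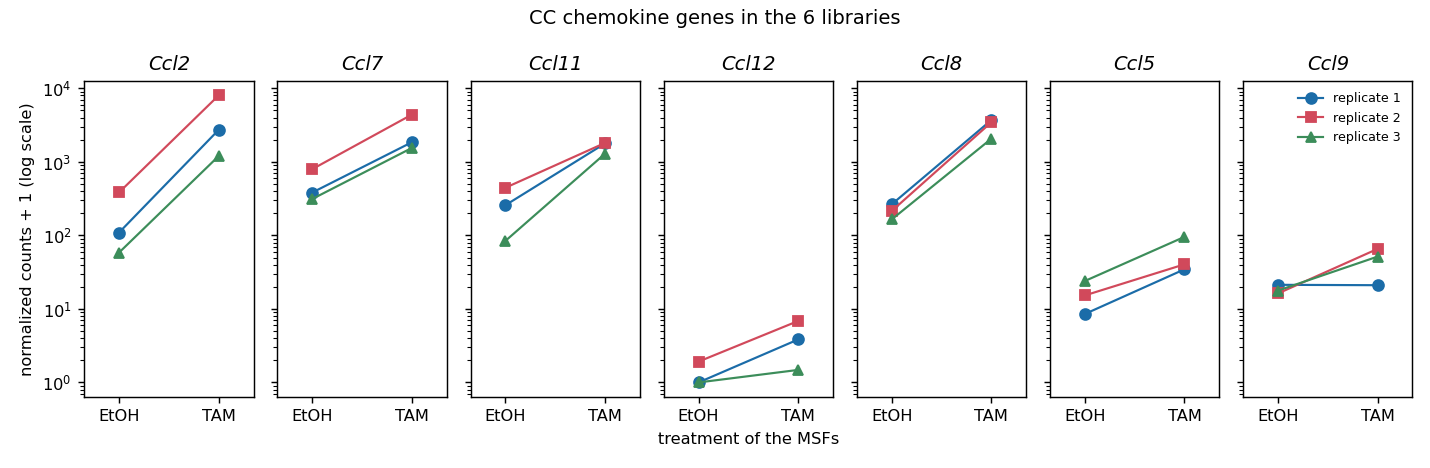
Normalized counts + 1 (log scale) of each gene in the EtOH and TAM libraries, with points of the same replicate number joined by a line. Lines for Ccl2, Ccl7 and Ccl8 run nearly parallel, Ccl9 of replicate 1 is flat at about 20 normalized counts, and Ccl12 stays below 6.

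Ccl2 encodes MCP-1, the main ligand of CCR2 and a strong monocyte attractant. Its normalized counts were 108, 383 and 57.4 in EtOH replicates 1, 2 and 3 and 2724, 8013 and 1198 in TAM replicates 1, 2 and 3. Replicate 2 was highest and replicate 3 lowest in both groups, and the lowest TAM value was above the highest EtOH value. Within each group the libraries spread over 6.68-fold (EtOH) and 6.69-fold (TAM). The ratio of TAM to EtOH within a same-numbered pair was nearly constant, at 25.1, 20.9 and 20.9. The log2 fold change was accordingly 4.46 with a standard error of 0.85 (adjusted p = 0.113) without the block and 0.16 (adjusted p = 0.00438) with it. Among all genes tested 5 had a larger log2 fold change.

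Ccl7 encodes MCP-3, which binds several CC receptors, including CCR2 and CCR3. Its normalized counts were 381, 795 and 312 in the EtOH replicates and 1847, 4388 and 1544 in the TAM replicates. As for Ccl2, replicate 2 was highest and replicate 3 lowest in both groups. The paired ratios were 4.84, 5.52 and 4.96, the narrowest spread of the 6 genes that passed the filter (SD 0.10 of the paired log2 differences). The log2 fold change of 2.35 had a standard error of 0.48 (adjusted p = 0.131), and of 0.16 (adjusted p = 0.0147) with the block.

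Ccl8 encodes MCP-2, known in the mouse as a ligand of CCR8. It had 263, 214 and 164 normalized counts in the EtOH replicates and 3694, 3447 and 2061 in the TAM replicates. The highest and lowest libraries of a group differed by 1.61-fold (EtOH) and 1.79-fold (TAM). Replicate 1 was highest here and replicate 3 lowest in both groups. The log2 fold change of 3.82 had a standard error of 0.29 (adjusted p = 0.0151), and of 0.17 (adjusted p = 0.00679) with the block. The call without the block was lost when any library but TAM replicate 3 was left out. Its adjusted p was 0.0583, 0.0714 and 0.0796 without EtOH replicates 1, 2 and 3, 0.0943 and 0.0510 without TAM replicates 1 and 2, and 0.0105 without TAM replicate 3, with log2 fold changes of 3.64 to 4.08.

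Ccl11 encodes eotaxin, the eosinophil attractant that acts through CCR3. Its values were 256, 444 and 83.1 normalized counts in the EtOH replicates and 1778, 1806 and 1289 in the TAM replicates. The EtOH libraries ranged over 5.34-fold and the TAM libraries over 1.40-fold, so the paired ratios ran from 4.07 in replicate 2 over 6.94 in replicate 1 to 15.5 in replicate 3. The lowest EtOH library gave the largest ratio and the highest gave the smallest. The log2 fold change was 2.92 with a standard error of 0.56 (adjusted p = 0.113), and of 0.38 (adjusted p = 0.0419) with the block.

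Ccl12 encodes MCP-5, a mouse CCR2 ligand with no direct human counterpart. It was listed at 0, 0.92 and 0 normalized counts in the EtOH replicates and at 2.84, 5.85 and 0.48 in the TAM replicates. All were close to 0. The EtOH replicate 2 value lay above that of TAM replicate 3, while the TAM value was higher in all 3 same-numbered pairs, by 1.94, 1.84 and 0.57 on the log2 scale. When genes with low values were kept in the limma fit, its log2 fold change was 1.45 with a standard error of 0.61 (adjusted p = 0.376, and 0.210 under the block). Its unadjusted p was 0.0457, and 0.0182 under the block, so Ccl12 was not called in either fit once adjusted over all genes. Its neighbours Ccl11 and Ccl8, on either side of it, had at least 1289 normalized counts in each TAM library.

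Ccl5 encodes RANTES, a chemokine that attracts T cells and monocytes. Its normalized counts were 7.53, 14.3 and 23.0 in the EtOH replicates and 33.5, 39.4 and 94.4 in the TAM replicates. Replicate 3 was highest and replicate 1 lowest in both groups, the reverse of the order in Ccl8. The paired ratios were 4.45, 2.76 and 4.11. The log2 fold change of 1.80 did not pass the threshold without the block (standard error 0.57, adjusted p = 0.256) or with it (standard error 0.34, adjusted p = 0.0882).

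Ccl9 encodes a CCR1 ligand made mostly by myeloid cells. It had 20.3, 15.2 and 16.8 normalized counts in the EtOH replicates and 20.01, 64.5 and 50.4 in the TAM replicates. TAM replicate 1 did not differ from its EtOH partner, with a ratio of 0.988, while the other pairs had ratios of 4.24 and 3.01. With a log2 fold change of 1.18 and a standard error of 0.50 in both fits, Ccl9 was not called (adjusted p = 0.377, and 0.317 under the block).

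**Figure D2:**
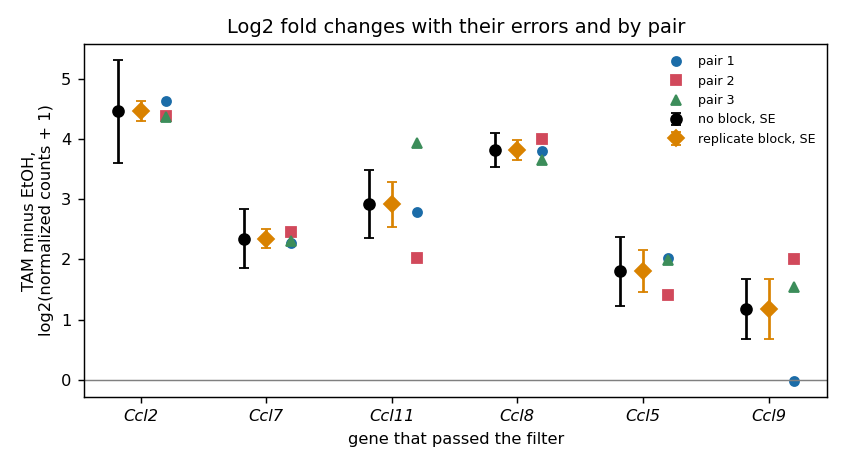
Log2 fold changes (TAM minus EtOH of log2(normalized counts + 1)) of the 6 genes that passed the filter, as the estimate with its standard error without and with the replicate block, and as the difference in each same-numbered pair. The 3 pairs lie close together for Ccl2 (4.36 to 4.64), Ccl7 (2.27 to 2.46) and Ccl8 (3.65 to 4.01) and far apart for Ccl11 (2.02 to 3.94) and Ccl9 (−0.02 to 2.01).

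Of the 6 genes that passed the filter, 5 kept the same order of replicates 1, 2 and 3 in both groups, against 24.6% of all genes tested. The order itself differed between genes. It was replicate 2, 1, 3 from high to low for Ccl2, Ccl7 and Ccl11, replicate 1, 2, 3 for Ccl8 and replicate 3, 2, 1 for Ccl5. The TAM library was higher in all 3 pairs for 5 of the 6 genes (18.3% of all genes tested), Ccl9 being the exception. Ccl12, which was below the filter, was also higher in all 3. An exact two-sided permutation test of 3 against 3 libraries gave p = 0.1, the smallest value it allows, for each of Ccl2, Ccl7, Ccl8, Ccl11 and Ccl5, and p = 0.2 for Ccl9 and Ccl12. Without TAM replicate 2 the log2 fold changes were 3.74 for Ccl2, 1.89 for Ccl7, 3.71 for Ccl8, 2.83 for Ccl11, 1.97 for Ccl5 and 0.85 for Ccl9, with no adjusted p under 0.05.

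Levels of different genes were compared as normalized counts per kb of exon. In the EtOH libraries Ccl7 stood highest (619 ± 326, SD, n = 3), followed by Ccl8 (418 ± 97.4), Ccl11 (241 ± 167) and Ccl2 (161 ± 154). Neighbours in this order overlapped in their ranges. Ccl5 (15.5 ± 8.06), Ccl9 (5.72 ± 0.85) and Ccl12 (0.57 ± 0.99) followed with no overlap between neighbours. In the TAM libraries the order was Ccl8 (6002 ± 1722, SD, n = 3), Ccl2 (3496 ± 3143), Ccl7 (3237 ± 1950) and Ccl11 (1501 ± 269). The ranges of Ccl8, Ccl2 and Ccl7 overlapped between neighbours, and Ccl11 lay below Ccl7 without overlap. Ccl5 (58.1 ± 34.97) was 25.8-fold below Ccl11, and Ccl9 (14.8 ± 7.47) and Ccl12 (5.69 ± 5.01) overlapped. Ccl8 ranked between 1594 and 2515 from the top among 22148 genes by level per kb in the EtOH libraries and between 53 and 108 in the TAM libraries. Ccl2 ranked between 2532 and 8526 in EtOH and between 65 and 598 in TAM, so that in TAM replicate 2 it was among the most abundant messages of the cells.

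The summed level of the 7 genes per kb was 1338, 2178 and 866 in the EtOH replicates and 13620, 21010 and 8321 in the TAM replicates. Replicate 2 was highest and replicate 3 lowest in both groups. Ccl7 made up 35.6%, 45.5% and 44.9% of that sum in the EtOH replicates and 16.9%, 26.1% and 23.2% in the TAM replicates. Its share did not overlap between the groups (42.0% ± 5.58 against 22.1% ± 4.67, SD, n = 3, exact permutation p = 0.1). The share of Ccl2 was 9.47% ± 5.23 and 21.3% ± 10.9 and that of Ccl8 31.6% ± 10.7 and 44.6% ± 11.02, and both overlapped between the groups. Within same-numbered pairs both shares were higher in TAM in all 3, with Ccl2 at 7.12%, 15.5% and 5.83% in the EtOH replicates against 17.6%, 33.5% and 12.7%, and Ccl8 at 38.5%, 19.2% and 37.0% against 53.1%, 32.1% and 48.5%. Ccl11 held 15.1% ± 5.45 and 11.4% ± 3.23, again with overlap. The remaining genes, Ccl5, Ccl9 and Ccl12, together held under 4% in each library.

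**Figure D3:**
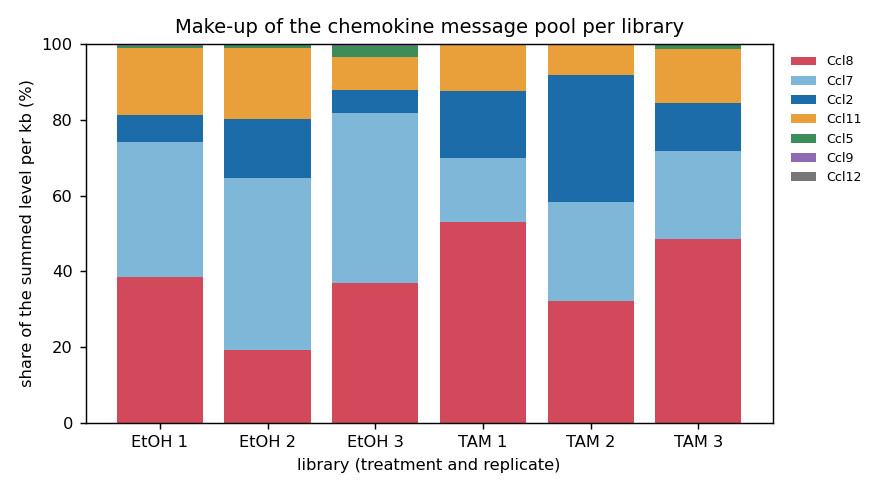
Share of each gene in the summed level per kb of exon of the 7 genes (percent, stacked), for each EtOH and TAM library. The light blue segment of Ccl7 is 35.6% to 45.5% in the EtOH libraries and 16.9% to 26.1% in the TAM libraries, while Ccl8 varies between 19.2% and 53.1%.

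Plain ratios between genes inside a library do not depend on how libraries were scaled. The ratios here were taken after adding 1, so scaling enters them slightly, most for the low genes Ccl5 and Ccl9. Among the 15 ratios between the 6 genes that passed the filter, 4 did not overlap between the groups. The log2 ratio of Ccl2 to Ccl7 was −1.81, −1.05 and −2.42 in the EtOH replicates and 0.56, 0.87 and −0.37 in the TAM replicates, a shift of 2.11. The ratio of Ccl2 to Ccl11 shifted by 1.54, from −0.66 ± 0.52 to 0.89 ± 1.15 (SD, n = 3). The ratio of Ccl7 to Ccl8 shifted the other way by −1.47, from 1.12 ± 0.70 to −0.36 ± 0.68, and that of Ccl8 to Ccl9 was higher in TAM by 2.64. Each of the 4 had an exact two-sided permutation p of 0.1, which became 0.375 when adjusted over the 15 ratios. The log2 ratio of Ccl2 to Ccl8 was −1.27, 0.84 and −1.50 in the EtOH replicates and −0.44, 1.22 and −0.78 in the TAM replicates. It overlapped between the groups (shift 0.64, exact unpaired permutation p = 0.5) but was higher in TAM in all 3 same-numbered pairs.

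Genes next to the first group were at or near 0 in both groups of libraries. Within 500 kb of the 7 genes the table held 31 other genes, 5 of them around the first group. None of those 5, which were Accn1, AK017430, Gm17268, Ccl1 and Tmem132e, exceeded 1.66 normalized counts in any library. Of the 26 genes around Ccl5 and Ccl9, 12 were tested. Without the block limma called 0. An unadjusted p under 0.05 was found for 4 (Slfn2, Rasl10b, Mmp28 and Taf15), and for 1588 of all 11877 genes tested. With the block 2 were called higher, where 1.0% of all genes tested were. Slfn2, a member of the Schlafen family, had 2.06, 12.4 and 1.63 normalized counts in the EtOH replicates and 42.2, 116 and 31.9 in the TAM replicates (log2 fold change 3.53, adjusted p = 0.155 without the block and 0.0346 with it). Rasl10b had 5.19, 7.58 and 2.51 against 65.8, 42.7 and 34.1 (log2 fold change 3.03, adjusted p = 0.0915 and 0.0495). All EtOH values of Slfn2 and Rasl10b lay below the filter of 16.2 normalized counts. Both were thus tested only through their TAM values, which fixed their direction. The median log2 fold change of the 12 genes was −0.20. Taf15, 19.0 kb from Ccl5, had 1273, 1671 and 1526 normalized counts in the EtOH replicates and 1019, 1110 and 791 in the TAM replicates (log2 fold change −0.62, adjusted p = 0.260).

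**Figure D4:**
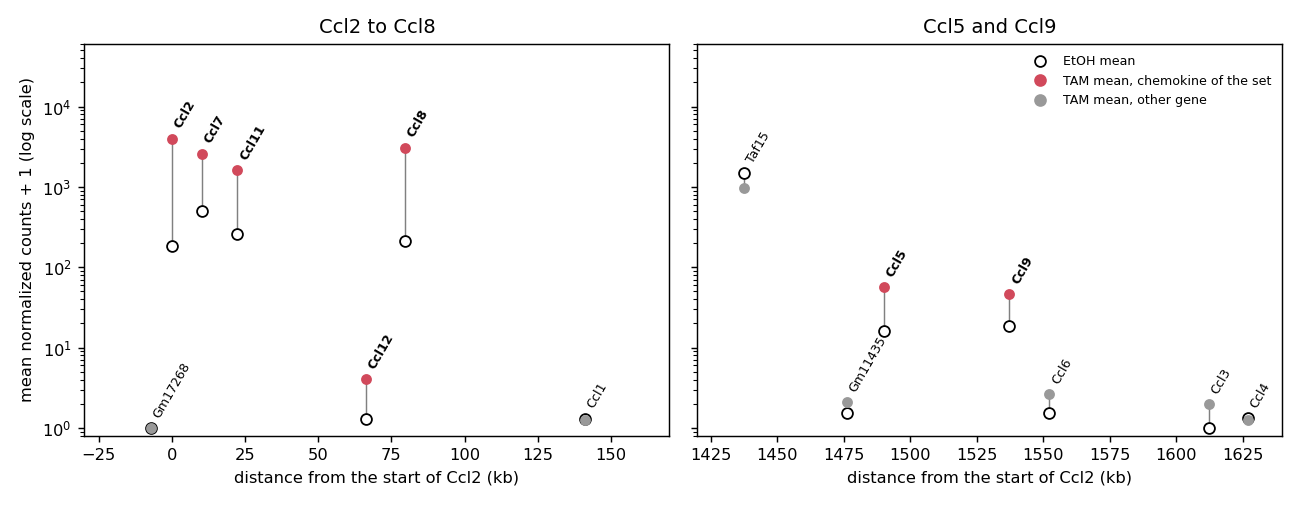
Mean normalized counts + 1 (log scale) in EtOH (open) and TAM (filled) of the chemokine genes and of other genes of the table, against the distance in kb of each gene's left end from the start of Ccl2. Ccl2, Ccl7, Ccl11 and Ccl8 have TAM means between 1624 and 3978, while Ccl12 between them and Ccl1 beside them stay at a mean of about 3 or below.

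Other CC chemokines were at or near 0. The list held 14 further symbols found in the table, on 17 rows, and 8 rows were at 0 in all libraries. Ccl1, Ccl3, Ccl4 and Ccl6, which share chromosome 11, reached at most 0.91, 2.50, 0.97 and 4.03 normalized counts in any library. Only Ccl27a, a skin chemokine usually made by keratinocytes, passed the filter, with a log2 fold change of 0.08 (adjusted p = 0.960). Receptors for these ligands were also scarce. Ccr2, the receptor of Ccl2 and Ccl12, had at most 0.97 normalized counts, Ccr1 0.82 and Ccr3 0.79. Of 15 receptor genes 1 was tested. This was Ccrl1, an atypical receptor also named Ackr4 that takes up homeostatic chemokines, with 15.4, 6.61 and 14.0 normalized counts in the EtOH replicates and 108, 29.3 and 34.5 in the TAM replicates (log2 fold change 1.99, standard error 0.61, adjusted p = 0.247, and 0.116 with the block). Its EtOH values all lay below the filter, so it was tested only through its TAM values.

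Of 4 proteases known to cleave CC chemokines, all were tested and 1 was called higher with the block, where 1.0% of all genes tested were. Mmp3 had 63.8, 376 and 125 normalized counts in the EtOH replicates and 1507, 3255 and 1099 in the TAM replicates (log2 fold change 3.59, adjusted p = 0.103 without the block and 0.0237 with it). Its libraries did not overlap between the groups. Mmp2, Mmp14 and Dpp4 had log2 fold changes of −0.09, −0.23 and −1.31 and were not called in either fit (adjusted p of 0.217 or more).

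Leukocytes also make these chemokines, and markers of other cell types were read in the same libraries. Of 19 leukocyte markers in the table, 6 were tested and 0 called by limma in either fit. Without the block 2 of them (Cd14 and Lyz2) had an unadjusted p under 0.05, as had 1588 of all 11877 genes tested. The summed normalized counts of the leukocyte markers were 386 to 889 in the EtOH libraries and 596 to 2377 in the TAM libraries, the highest being TAM replicate 2, where Cd53 alone stood at 1731. Cd53 had 134, 293 and 30.8 in the EtOH replicates and 172, 1731 and 264 in the TAM replicates. It was higher in all 3 pairs but overlapped between the groups (log2 fold change 1.99, adjusted p = 0.473, and 0.172 with the block). The list was mixed. Emr1, Tyrobp and Cd3e were listed at 0 in every library, Cd52 was at no more than 0.97 and Ptprc (CD45) at no more than 5.01. Mrc1 (1.40, 0 and 2.60 against 7.65, 13.4 and 2.73) and Itgam (0.73, 0 and 0 against 2.34, 0.82 and 3.11) were low, and higher in TAM without overlap. Other members were well above 0. Csf1r, the receptor of a macrophage growth factor, had 75.7, 73.4 and 74.3 normalized counts in the EtOH replicates and 113, 226 and 90.6 in the TAM replicates, higher in each TAM library than in any EtOH library (log2 fold change 0.82, adjusted p = 0.388). Cd68 reached 352 in EtOH replicate 2 and Itgb2 69.1 in EtOH replicate 1, and both overlapped between the groups, with lower means in TAM. The part of such cells in the chemokine values was not tested. Lyz2 had 46.8, 35.3 and 62.9 normalized counts in the EtOH replicates and 103, 143 and 159 in the TAM replicates (log2 fold change 1.48, adjusted p = 0.141). Keratinocyte markers summed to 82.9 to 92.2 and 66.8 to 283 normalized counts, and 2 of 10 were tested with 0 called in either fit. Krt10 had a log2 fold change of −0.02 and Trp63 one of −2.11, the latter at an unadjusted p under 0.05. Krt5, which was not tested, was higher in TAM without overlap (0.64, 0 and 0 against 2.96, 7.53 and 13.4). Dsp, also not tested, was higher in all 3 pairs (2.89, 12.4 and 5.22 against 4.22, 69.5 and 29.8). Ivl stood at 153 in TAM replicate 2. Of 8 endothelial markers 1 was tested, and this gene, Kdr, was lower in the TAM libraries with the block (205, 68.7 and 116 against 4.84, 7.53 and 14.0, log2 fold change −3.71, adjusted p = 0.0608 without and 0.0488 with the block). With the block 73 of all 11877 genes tested were called lower. The TAM values of Kdr and Trp63 all lay below the filter, so both were tested only through EtOH, which fixed their direction. Kdr encodes a VEGF receptor, and Cldn5, Tie1, Emcn and Cdh5 were at no more than 4.80 normalized counts. The other endothelial markers were below the filter, with Tek at up to 31.3, Pecam1 at up to 11.3 and Vwf at 0.55, 6.65 and 4.34 in the EtOH replicates and 8.90, 8.36 and 10.1 in the TAM replicates, without overlap. Of 10 fibroblast markers 0 were called in either fit, and 3 had an unadjusted p under 0.05 (1588 of all 11877 genes tested had one). Of these, Dcn and Lum were lower in TAM (log2 fold changes −2.37 and −2.38) and Thy1 was higher (1.36).

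Genes whose values followed those of each chemokine most closely over the 6 libraries were found by the root mean square difference of centred log2(normalized counts + 1). Nearest to Ccl2 were Wnt4 (0.51), the acute-phase gene Hp (0.52) and the BMP antagonist Grem1 (0.56). Grem1 had 85.7, 667 and 31.7 normalized counts in the EtOH replicates and 1894, 4414 and 782 in the TAM replicates, with replicate 2 highest and replicate 3 lowest as in Ccl2. Nearest to Ccl7 were Arhgef37 (0.28) and Galntl4 (0.29). Nearest to Ccl8 were the iron-carrier binding gene Lcn2 (0.33), the potassium channel gene Kcnj2 (0.35) and ENSMUSG00000075014 (0.36), which has no name in the table and is Gm10800 in the annotation. Ccl11 was nearest to the antimicrobial peptide gene Camp (0.22), Mtus2 (0.31) and Fam59b (0.36). The 3 genes nearest to Ccl5 were all histone genes, Hist1h2bg (0.30), Hist1h1e (0.45) and Hist1h2bc (0.49). Ccl9 was nearest to Abca4 (0.19), Col8a1 (0.29) and Glipr1 (0.30), each of which had a TAM replicate 1 value within the range of its EtOH libraries. No gene appeared beside 2 of the chemokines, and none of the chemokines was among the 3 nearest to another. The EtOH values of Lcn2, Kcnj2, Camp, Mtus2, Hist1h2bg and Hist1h1e all lay below the filter (Camp at 5.2, 5.67 and 0.75 normalized counts). These genes were thus tested only through their TAM values, which fixed their direction, and the added 1 weighs on their EtOH values. Whether closeness in profile reflects shared regulation was not tested.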

How the data were processed

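MSFs of 2 groups were analysed, 3 EtOH and 3 TAM libraries, grouped by their titles. The authors deposited 1 table, whose signal values are normalized counts of each gene in each library. Per the study's methods and the submitters' processing notes, reads were mapped to mm9 with TopHat, counted with HTSeq and analysed with edgeR and TMM scaling. The table itself does not state its scaling, and most of its values are not whole. The planned test assumed counts, so limma 3.58.1 (R 4.3.3, intensity trend) was used on log2(value + 1), without further scaling. Genes with at least 1 c.p.m., 16.2 normalized counts from the mean library sum, in at least 3 libraries were tested (11877 genes), and p-values were adjusted over them by the Benjamini-Hochberg method. A call is an adjusted p under 0.05. Across genes, the departures from the group mean of libraries with the same number in their titles correlated with r = 0.24, 0.29 and 0.42, and between −0.31 and 0.04 for other numbers. Centring within each group lowers the values for other numbers when the same-numbered ones are positive, so they are not separate evidence. The labels do not state a pairing. The replicate numbers were taken to pair the libraries from these same data, and the fit with the replicate block is given where it changes a call.

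The chemokines and the lists of other genes were chosen with earlier results of these data known. Named genes are the 7 chemokines, Ccl1, Ccl3, Ccl4 and Ccl6, the 3 tested genes nearest in profile to each chemokine, and listed or neighbouring genes that were called. The other genes of the text were named after their values were seen. Exon lengths, positions and overlaps came from the GENCODE annotation of mm9, of which the chemokines' starts and ends equal those of the table once its starts are counted from 1. Transcripts were compared with BLAST 2.17.0, promoters came from the RefSeq table of GRCm38.p6, and Python 3.11.15 with pandas 2.3.3 (tables) and matplotlib 3.10.9 (plots) did the rest. The fit was tested on simulated data. Alternatives were the replicate block, 2 other scalings, no filter, at least 10 normalized counts in every library, pseudocounts of 0.1 and 10, library weights and leaving out each library. The length of the longest transcript, in place of merged exons, was chosen after seeing the data. Promoters of Ccl2, Ccl5, Ccl7 and Ccl11 were not analysed here, and 1 receptor and 1 of the genes nearest to Ccl7 are not reported here.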

Additional observations from a re-analysis of the deposited data

How the results depend on the processing

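The log2 fold changes of the chemokines stayed above 0 under every alternative that gave a value. The count of chemokines called higher was 1 without the replicate block, 4 with it and 5 with library weights, and 0 to 1 with each library left out in turn. With the block Ccl2 (4.46), Ccl7 (2.35) and Ccl11 (2.92) passed the threshold, and with library weights Ccl2 (4.11), Ccl7 (2.20), Ccl11 (3.15) and Ccl5 (2.38) did. Listed genes called went from 0 to 2 with the block and 9 with weights, and neighbouring genes from 0 to 2 and 4. Genes called over the whole table went from 20 higher and 9 lower to 119 and 73 with the block and 386 and 356 with weights, to 12 and 5 without a filter, to 14 and 4 with at least 10 in every library, and to 0 to 6 and 0 to 9 with 1 library left out. The cause of these changes in the counts was not tested. The other calls of the chemokines were not changed by the block. With 1 library left out the log2 fold change was 3.74 to 5.22 for Ccl2, 1.89 to 2.75 for Ccl7, 3.64 to 4.08 for Ccl8, 2.25 to 3.45 for Ccl11, 1.354 to 2.16 for Ccl5 and 0.85 to 1.67 for Ccl9. Requiring at least 10 in every library removed Ccl5, and Ccl12 had a value only without a filter. Genes below the filter, Ccl12 among them, have too low values for their differences to be firm.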
